A study of Homo sapiens with 6 samples.

Results

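The genes described here supply phosphatidylinositol (PI) and carry it to the plasma membrane. They were the 10 rows of the deposited count table whose symbol was PITPNA, PITPNB, PITPNC1, PITPNM1, PITPNM2, CDIPT, CDS1, CDS2, C2CD2 or C2CD2L, of 63140 genes in all. Each symbol matched 1 row, and all 10 passed the filter on low counts that left 16754 genes for testing. The study profiled HEK293, an established human cell line of embryonic kidney origin, after 24 h with GSK-A1 at 100 nM or with the solvent dimethyl sulfoxide (DMSO). GSK-A1 inhibits the lipid kinase encoded by PI4KA. Confluent cultures of this single line were used in both groups, the labels name no genetic change, and each group held 3 libraries. All 6 libraries carry the same batch label. The labels call the replicates of each group biological but do not say whether they came from separate cultures, so the p-values measure the spread between these libraries, which may be technical.

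PI is made in the endoplasmic reticulum. Phosphatidic acid is first converted to CDP-diacylglycerol by the synthases CDS1 and CDS2, and CDIPT then joins that intermediate to inositol. Transfer proteins carry the product to the plasma membrane, where PI4KA phosphorylates it as the first step towards PIP2. When phospholipase C cleaves PIP2, the diacylglycerol left behind becomes phosphatidic acid, which is returned to the endoplasmic reticulum for another round of synthesis. The inhibited step is the one that directly follows the work of the genes described here.

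Total counts per library ranged from 33040178 to 47777233, and the 10 genes held between 705 and 8959 counts each in a library. Of all genes tested, 22.9% were called by edgeR's quasi-likelihood test at an adjusted p under 0.05, 12.0% as higher and 10.9% as lower with GSK-A1. Higher genes made up 52.3% of the calls under the main library factors and 33.3% under upper-quartile factors. GSK-A1 replicate 2 stood apart from the other libraries: the mean GC content of its transcripts, weighted by expression, was 48.5%, against 48.8% in GSK-A1 replicates 1 and 3 and 48.9% to 49.0% in the DMSO libraries. PI4KA itself did not pass the test, with normalised expression of 187, 179 and 188 CPM (counts scaled to a library of fixed size) under DMSO and 182, 171 and 184 CPM under GSK-A1 (log2 fold change -0.04, SE 0.04; edgeR adjusted p = 0.456). Of 8 genes reported to be expressed in HEK293, 7 were at 1 CPM or more in every library and NEFM was at 0.0604 to 0.381 CPM. The summed level of that marker list was 2130 to 2210 CPM with DMSO and 2280 to 2470 CPM with GSK-A1, a difference whose part in the results was not tested. VIM, the most abundant of them, was at 1050 to 1116 CPM with DMSO and 1180 to 1284 CPM with GSK-A1, while PAX2 was lower with GSK-A1, at 1.93 to 2.04 CPM against 2.62 to 2.78 CPM. Summed markers of leukocytes, endothelium and hepatocytes reached at most 0.132, 0.0879 and 0.176 CPM in any library. Of the 3 fibroblast markers COL1A2 was at 0 in every library, and the 3 together were at 6.53 to 7.54 CPM with DMSO and 4.95 to 6.88 CPM with GSK-A1, nearly all of it COL1A1.

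With GSK-A1, 4 of the 10 genes rose and 0 fell. The genes that rose were PITPNB, PITPNC1, CDS1 and CDS2, with increases of 13.3%, 19.0%, 12.8% and 8.89%. The share called higher among all tested genes was 12.0%. With the filter set to a mean of at least 1 CPM, the same 4 genes were called higher. Of the 13722 genes then tested, 1897 were called higher, and 27.6% were called in either direction. The transfer protein PITPNA and the synthase CDIPT did not pass the test, nor did PITPNM1, PITPNM2, C2CD2 and C2CD2L. In 5 genes all GSK-A1 libraries lay above all DMSO libraries, as in 20.2% of tested genes, and in 0 they all lay below, against 20.4%. The median log2 fold change of the 10 genes was 0.14, beside -0.01 over all genes tested, and the values ran from -0.02 to 0.25. Together the 10 genes took 0.0689%, 0.0682% and 0.0689% of the counts in DMSO replicates 1 to 3 and 0.0726%, 0.0732% and 0.0718% in GSK-A1 replicates 1 to 3. In bulk RNA such as this, fewer cells of a type and less RNA per cell cannot be told apart.

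**Figure D1:**
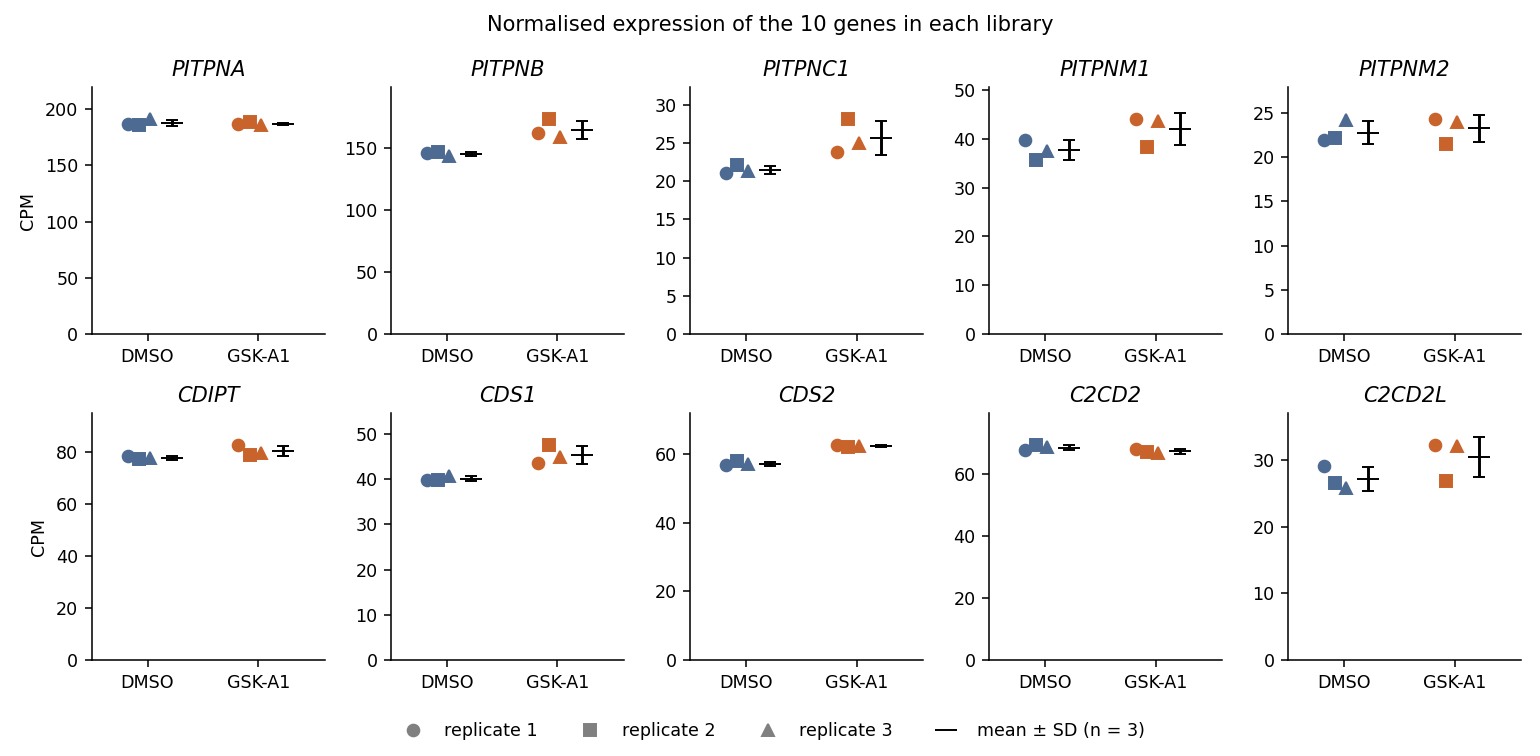
Normalised expression (CPM, vertical axes from 0) of each of the 10 genes in the 3 DMSO and 3 GSK-A1 libraries. Symbols mark the replicate numbers and black bars the mean ± SD. PITPNB, PITPNC1, CDIPT, CDS1 and CDS2 show all GSK-A1 libraries above all DMSO libraries, and the other 5 genes overlap.

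Because PITPNB, PITPNC1, CDS1 and CDS2 rose together, the DNA before their start sites is shown. All 10 members had an entry in the RefSeq promoter table (GRCh38.p14), with 13 windows of 300 bases in all. The printed stretches are the bases of the 250 before the RefSeq start up to the first GENCODE 29 exon of the gene that reaches into them, read 5′ to 3′ on the strand of the gene. They lie at chr22:27919307-27919506 on the minus strand for PITPNB, and on the plus strand at chr17:67377031-67377280 for PITPNC1, chr4:84582877-84582978 for CDS1 and chr20:5126758-5126785 for CDS2. The stretches of PITPNC1, CDS1 and CDS2 lie outside the annotated gene. That of PITPNB lies in an intron of a GENCODE transcript that starts further upstream, at position 27920134, and ahead of the first exon of its other transcripts that begin near the RefSeq start. Capitals mark the CCAAT box, here on the opposite strand and so written ATTGG.
PITPNB: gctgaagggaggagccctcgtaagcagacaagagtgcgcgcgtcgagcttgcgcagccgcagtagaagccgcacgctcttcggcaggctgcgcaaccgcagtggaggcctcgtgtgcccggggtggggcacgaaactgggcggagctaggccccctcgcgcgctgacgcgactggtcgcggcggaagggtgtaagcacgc
PITPNC1: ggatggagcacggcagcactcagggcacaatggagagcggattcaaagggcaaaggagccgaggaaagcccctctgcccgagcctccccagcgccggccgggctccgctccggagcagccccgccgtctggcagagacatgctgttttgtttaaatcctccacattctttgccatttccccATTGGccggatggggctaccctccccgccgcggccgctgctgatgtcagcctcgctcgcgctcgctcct
CDS1: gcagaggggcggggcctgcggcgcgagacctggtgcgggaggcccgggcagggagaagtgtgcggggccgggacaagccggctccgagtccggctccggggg
CDS2: cgtatttgcgccATTGGtggatattccg

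These letters were searched on both strands of the 300-base windows for 7 motifs. CCAAT, the core of the NF-Y site, was present in PITPNC1 and CDS2 among the genes that rose, and in CDIPT and PITPNM1 among the others. It occurs in 34.6% of the 35116 windows of the table, so 4 of 13 member windows is near that share. Neither EGR1 sequence searched was found in the 4 genes that rose: GCGTGGGCG was in 0 of the member windows and 0.795% of all, and GCGGGGGCG was in PITPNA, PITPNM2 and C2CD2 and in 5.07% of all. TGACGTCA, the CRE, was found in PITPNA (1.85% of all windows), and CACGTG, an E-box, in C2CD2 and C2CD2L (7.26%). The SREBP sequence TCACCCCAC (0.430% of all windows) and the ETS sequence ACCGGAAGT (1.00%) were in 0 member windows. A match here describes the letters in the window only.

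The small soluble transfer proteins were PITPNA, PITPNB and PITPNC1. PITPNA and PITPNB (class I proteins) exchange PI for phosphatidylcholine between membranes, and PITPNC1 (class II) binds PI and phosphatidic acid. PITPNA (ENSG00000174238, chromosome 17) measured 187, 186 and 191 CPM in the DMSO libraries and 187, 188 and 186 CPM in the GSK-A1 libraries, in the order of replicates 1 to 3 here and for every gene after it. The groups overlapped, and the log2 difference was -0.01 (SE 0.03, 95% interval -0.08 to 0.07; edgeR adjusted p = 0.913). A change of the size seen in its paralog lay outside that interval.

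PITPNB (ENSG00000180957, chromosome 22) stood at 145, 146 and 143 CPM with DMSO and at 162, 173 and 158 CPM with GSK-A1. All GSK-A1 libraries were higher than all DMSO libraries, and replicate 2 was the highest. The mean went from 145 ± 1 to 164 ± 7 CPM (SD, n = 3). In log2 terms GSK-A1 exceeded DMSO by 0.18 (SE 0.04, 95% interval 0.10 to 0.26), with an edgeR adjusted p of 0.00373. Without GSK-A1 replicate 2 the log2 fold change was 0.15 (edgeR adjusted p = 9.447e-05). It was the member called in the most alternative analyses, passing in each of 15, where its adjusted p reached at most 0.0321.

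PITPNC1 (ENSG00000154217, chromosome 17) had the largest fitted change of the members with all libraries, although not without GSK-A1 replicate 2 or with the GC trend removed. It stood at 21.0, 22.0 and 21.3 CPM with DMSO and at 23.8, 28.1 and 25.0 CPM with GSK-A1. The groups did not overlap and replicate 2 was again the highest. The mean went from 21.5 ± 0.5 to 25.6 ± 2.2 CPM (SD, n = 3). In log2 terms GSK-A1 exceeded DMSO by 0.25 (SE 0.06, 95% interval 0.12 to 0.38), with an edgeR adjusted p of 0.00850. Without GSK-A1 replicate 2 it was 0.19 (edgeR adjusted p = 0.00441), and without DMSO replicate 1 it was 0.24 and no longer called (edgeR adjusted p = 0.0547).

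PITPNM1 and PITPNM2, also known as Nir2 and Nir3, are large proteins that carry a transfer domain beside membrane-targeting domains. They act where the endoplasmic reticulum meets the plasma membrane and return phosphatidic acid in exchange for PI. PITPNM1 (ENSG00000110697, chromosome 11) stood at 39.9, 35.7 and 37.6 CPM with DMSO and at 44.0, 38.3 and 43.8 CPM with GSK-A1. GSK-A1 replicates 1 and 3 were above every DMSO library, while replicate 2 lay within the DMSO range. Its log2 difference was 0.16 (SE 0.06, 95% interval 0.03 to 0.28; edgeR adjusted p = 0.0619), which did not pass. Without GSK-A1 replicate 2 it was 0.22 and called (edgeR adjusted p = 6.182e-05).

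PITPNM2 (ENSG00000090975, chromosome 12) stood at 21.9, 22.1 and 24.2 CPM with DMSO and at 24.3, 21.5 and 23.9 CPM with GSK-A1. The lowest of the 6 values was GSK-A1 replicate 2, and the groups overlapped. The log2 difference was 0.04 (SE 0.06, 95% interval -0.09 to 0.17; edgeR adjusted p = 0.703), and upper-quartile factors made it -0.0030. The third gene of this family, PITPNM3, fell, at a lower level, from 5.43 ± 0.09 to 4.42 ± 0.25 CPM (SD, n = 3; log2 difference -0.29, SE 0.09; edgeR adjusted p = 0.0279). That call was kept in 8 of 15 alternative analyses. It was lost under DESeq2, with the GC trend removed, and whenever 1 library other than GSK-A1 replicate 3 was left out, with adjusted p-values up to 0.0962.

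C2CD2L, also known as TMEM24, is anchored in the endoplasmic reticulum and moves PI to the plasma membrane through a lipid-binding SMP domain; C2CD2 is its paralog. C2CD2L (ENSG00000172375, chromosome 11) stood at 29.1, 26.5 and 25.8 CPM with DMSO and at 32.2, 26.9 and 32.1 CPM with GSK-A1. As for PITPNM1, GSK-A1 replicates 1 and 3 were above every DMSO library and replicate 2 was within their range. The log2 difference was 0.16 (SE 0.07, 95% interval 0.02 to 0.31; edgeR adjusted p = 0.101). Without GSK-A1 replicate 2 it was 0.24 and called (edgeR adjusted p = 9.279e-05). DPAGT1, which runs the other way, has exons over 12.2% of the exon bases of C2CD2L, and since the strand setting of the counting is not given in the sources used here, some of its reads may belong to that gene, which stood at 46.6 CPM with DMSO and 46.8 CPM with GSK-A1.

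C2CD2 (ENSG00000157617, chromosome 21) stood at 67.7, 69.4 and 68.7 CPM with DMSO and at 68.3, 67.2 and 66.8 CPM with GSK-A1. The groups overlapped. Its log2 difference of -0.02 (SE 0.04; edgeR adjusted p = 0.698) had a 95% interval from -0.11 to 0.06, and it was called in 0 of 15 alternative analyses.

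The enzymes of PI synthesis were CDS1, CDS2 and CDIPT. CDS1 (ENSG00000163624, chromosome 4) stood at 39.9, 39.7 and 40.7 CPM with DMSO and at 43.6, 47.5 and 44.9 CPM with GSK-A1. All GSK-A1 libraries were above all DMSO libraries. The mean went from 40.1 ± 0.5 to 45.3 ± 2.0 CPM (SD, n = 3). In log2 terms GSK-A1 exceeded DMSO by 0.17 (SE 0.05, 95% interval 0.08 to 0.27), with an edgeR adjusted p of 0.0132. The call was lost without DMSO replicate 1 (edgeR adjusted p = 0.0617) or DMSO replicate 2 (0.0689), with log2 fold changes of 0.17 in both.

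CDS2 (ENSG00000101290, chromosome 20) stood at 56.8, 57.9 and 57.1 CPM with DMSO and at 62.6, 62.1 and 62.5 CPM with GSK-A1. The libraries of each group lay close together and the groups did not overlap. The mean went from 57.3 ± 0.6 to 62.4 ± 0.3 CPM (SD, n = 3). In log2 terms GSK-A1 exceeded DMSO by 0.12 (SE 0.04, 95% interval 0.04 to 0.21), with an edgeR adjusted p of 0.0349. This was the least secure of the 4 calls. It was lost in 7 of 15 alternative analyses, which were upper-quartile factors (0.08), library totals only (0.11) and every fit that left out 1 library other than GSK-A1 replicate 2, with adjusted p-values up to 0.142.

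CDIPT (ENSG00000103502, chromosome 16), the only PI synthase, stood at 78.4, 77.0 and 77.6 CPM with DMSO and at 82.4, 78.8 and 79.6 CPM with GSK-A1. All GSK-A1 libraries were above all DMSO libraries, although the nearest of them lay at 78.4 and 78.8 CPM. The log2 difference was 0.05 (SE 0.04, 95% interval -0.03 to 0.13; edgeR adjusted p = 0.407). A rise as large as the one measured in PITPNB was outside this interval, which is from the fit without a GC correction. With the GC trend removed CDIPT was at 0.11 and called (edgeR adjusted p = 0.0221), beside 0.13 for PITPNB.

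**Figure D2:**
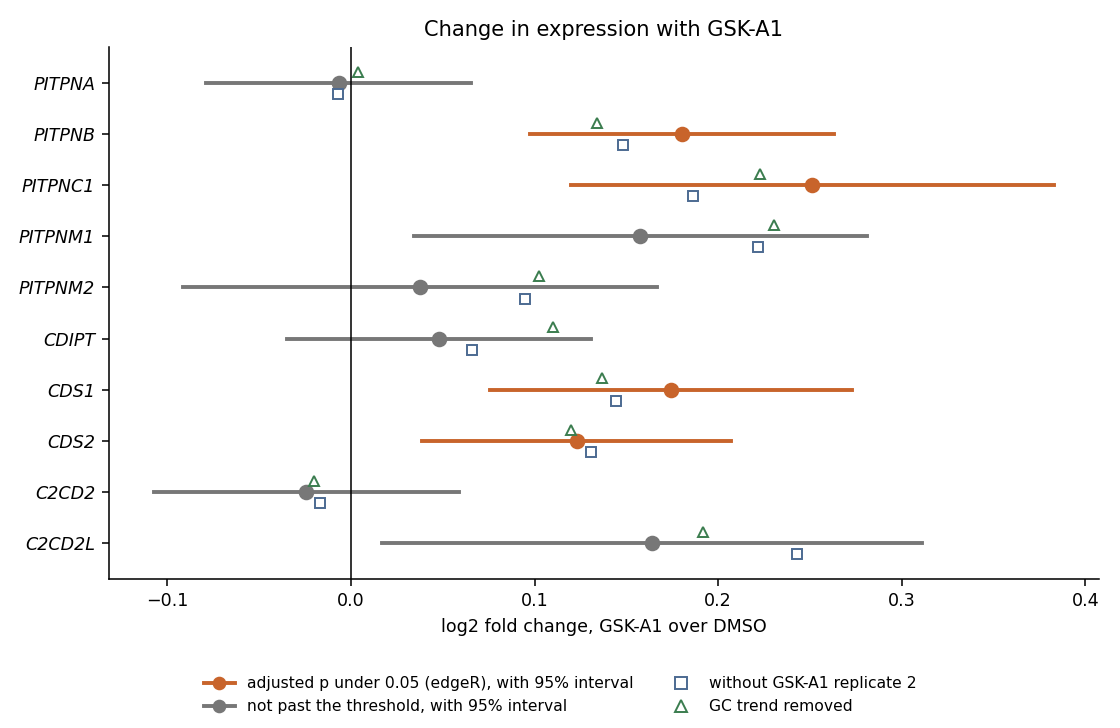
Log2 fold change of GSK-A1 over DMSO for each gene, with 95% intervals from edgeR (filled circles and bars, orange where the adjusted p was under 0.05), and the value without GSK-A1 replicate 2 (squares) and with the GC trend removed (triangles). The 4 called genes lie between 0.12 and 0.25, and PITPNA and C2CD2 lie next to 0.

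The members called higher in the main analysis had transcripts of low GC content. This is not a property apart from the call, as the calls over all tested genes went with GC content too. The longest transcripts of PITPNB, CDS1, PITPNC1 and CDS2 had GC contents of 40.9%, 42.0%, 43.6% and 48.1%, the lowest of the 10. Those of C2CD2, PITPNA and C2CD2L had 49.5%, 50.5% and 54.2%, and those of CDIPT, PITPNM2 and PITPNM1 had 59.5%, 60.8% and 65.0%. The same held beyond these genes: the median GC content was 43.2% among the genes called higher and 54.2% among those called lower, beside 48.3% over all tested genes with a known value. GSK-A1 replicate 2, the library with the lowest GC content, was the highest library for PITPNB, PITPNC1 and CDS1. It was the lowest GSK-A1 library for PITPNM1, PITPNM2, CDIPT and C2CD2L. CDS2, although among the genes that rose, was also lowest there, at 62.1 CPM against 62.6 and 62.5 CPM in GSK-A1 replicates 1 and 3.

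With each library's trend of expression on GC content removed, the 4 genes were still called, at log2 fold changes of 0.13 for PITPNB, 0.22 for PITPNC1, 0.14 for CDS1 and 0.12 for CDS2. In that analysis PITPNM1 (0.23; edgeR adjusted p = 6.403e-04), CDIPT (0.11; 0.0221) and C2CD2L (0.19; 0.0283) were called higher as well. This made 7 of 10 members, where 13.3% of all tested genes were called higher. Without GSK-A1 replicate 2 there were 6 members called higher, PITPNM1 and C2CD2L being added, against 15.2% of all tested genes. Without DMSO replicate 1 only PITPNB was called, against 6.78%. In these 3 analyses the number of members called lower was 0.

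Levels were also compared between genes, as CPM per kb of exon. In the DMSO libraries the order was PITPNA at 39.3 ± 0.6, PITPNB at 28.3 ± 0.3, CDIPT at 23.3 ± 0.2, CDS1 at 9.0 ± 0.12, C2CD2 at 7.98 ± 0.10, PITPNM1 at 5.85 ± 0.32, CDS2 at 4.82 ± 0.05, C2CD2L at 2.94 ± 0.19, PITPNC1 at 2.74 ± 0.07 and PITPNM2 at 2.48 ± 0.14 CPM per kb (SD, n = 3). The class I transfer proteins and the PI synthase thus led, and the ranges of C2CD2L and PITPNC1, neighbours near the lower end, overlapped. The order was the same with GSK-A1, where C2CD2L and PITPNC1 lay at 3.30 ± 0.33 and 3.28 ± 0.28 CPM per kb. With the longest transcript as the length, PITPNB (48.9 ± 0.5) came before PITPNA (48 ± 0.7) and C2CD2 (10.8 ± 0.1) before CDS1 (9.0 ± 0.12) in the DMSO libraries. By that length the DMSO ranges of CDS1 (8.91 to 9.13) and PITPNM1 (8.45 to 9.43) overlapped. Those of PITPNC1 (3.31 to 3.47) and PITPNM2 (3.23 to 3.57) did too. The neighbours in each of these pairs cannot be ordered from gene counts alone.

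**Figure D3:**
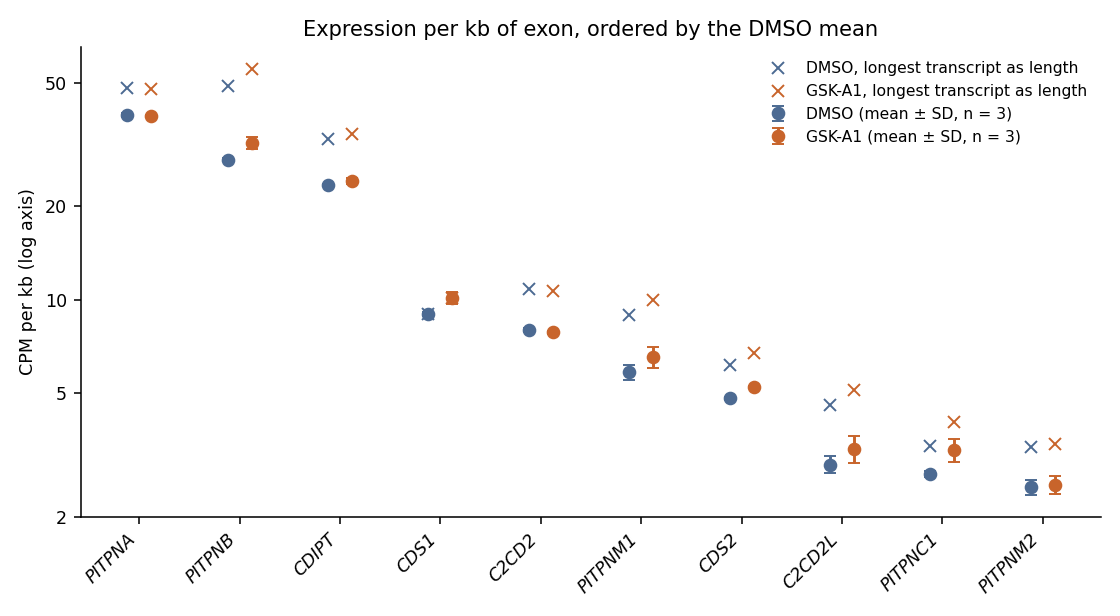
Expression per kb of exon (log axis) of the 10 genes, ordered by the DMSO mean. Circles with bars are the mean ± SD of 3 libraries per group over the full exonic length, and crosses use the longest transcript as the length. PITPNA, PITPNB and CDIPT lie above 20 CPM per kb and the other 7 genes at or below 11.

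Whether GSK-A1 shifted the balance between paralogs was read from the ratio of their counts within each library, which needs no library factor. The ratio of PITPNA to PITPNB was 1.28, 1.27 and 1.33 in DMSO replicates 1 to 3 and 1.16, 1.09 and 1.17 in GSK-A1 replicates 1 to 3. The groups did not overlap, and the geometric mean of the ratio fell by 12.1%, from 1.30 to 1.14 (exact two-sided permutation p = 0.1, the smallest that 3 against 3 libraries allow; 0.4 adjusted over 4 pairs). With 1 library left out the difference in log2 ratio ranged from -0.21 to -0.16, around -0.19 with all libraries. PITPNB rose in these cells while PITPNA did not pass the test. The ratio gives the size of that difference without a GC correction, although this design cannot pass the threshold. The longest transcripts of PITPNA and PITPNB had GC contents of 50.5% and 40.9%. With the GC trend removed their fitted log2 fold changes were 0.0037 and 0.13, and the ratio itself was not fitted that way.

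The other pairs overlapped between the groups. The ratio of CDS1 to CDS2 was 0.702, 0.686 and 0.713 with DMSO and 0.696, 0.765 and 0.718 with GSK-A1 (exact two-sided permutation p = 0.4). Both synthases rose, and the difference in log2 ratio was 0.05 with all libraries. It was 0.01 when GSK-A1 replicate 2 was left out and 0.08 when GSK-A1 replicate 1 was. The ratio of PITPNM1 to PITPNM2 was 1.82, 1.61 and 1.55 with DMSO and 1.81, 1.78 and 1.83 with GSK-A1 (exact permutation p = 0.3). Its difference in log2 ratio was 0.12, or 0.19 without DMSO replicate 1 and 0.08 without DMSO replicate 3. The ratio of C2CD2 to C2CD2L was 2.33, 2.62 and 2.66 with DMSO and 2.12, 2.50 and 2.08 with GSK-A1 (exact permutation p = 0.2), where GSK-A1 replicate 2 was the one library inside the DMSO range.

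**Figure D4:**
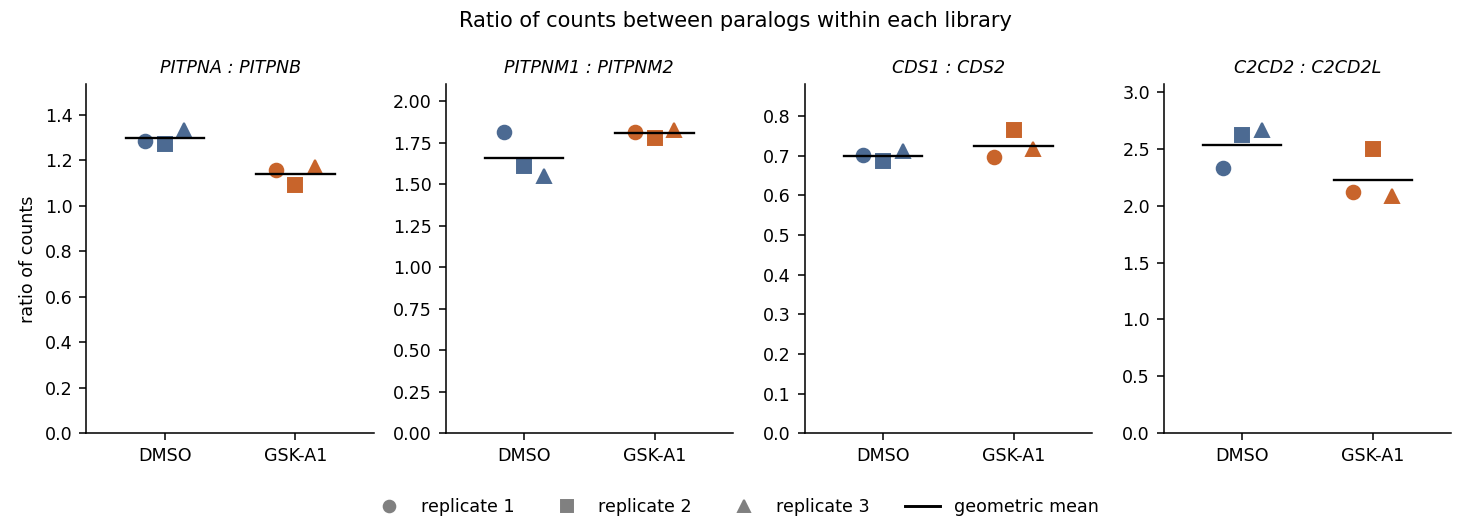
Ratio of counts between paralogs in each library (vertical axes from 0), with symbols for the replicate numbers and lines for the geometric mean of each group. Only for PITPNA to PITPNB do the groups not overlap, with 1.27 to 1.33 under DMSO and 1.09 to 1.17 under GSK-A1.

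The other genes around the PI cycle were read from 5 lists, of which 61 of 70 genes could be tested. Of these 13 rose and 9 fell, or 36.1%, beside 22.9% of all tested genes. Over all tested genes 12.0% were called higher and 10.9% lower, and the counts of each list stand beside these shares. With the filter set to a mean of at least 1 CPM, 20 of 60 list genes were called, beside 27.6% of all tested genes. The lists were chosen with earlier results of these data known. Inositol supply and PI remodelling had the highest median log2 fold change, 0.17 over 8 tested genes, of which 4 rose and 1 fell. The inositol transporters SLC2A13 (0.24 ± 0.05, SE; edgeR adjusted p = 0.00326) and SLC5A3 (0.20 ± 0.04; 0.00396) and the inositol monophosphatase IMPA1 (0.23 ± 0.05; 0.00499) rose and were called in all 15 alternative analyses. IMPA2, a second monophosphatase, fell (-0.19 ± 0.06; 0.0376), a call kept in 7 of 15 and lost when any 1 library but GSK-A1 replicate 2 was left out. With the GC trend removed SLC2A13, SLC5A3 and IMPA1 were at 0.15, 0.13 and 0.15. The median of this list was then 0.10, and without GSK-A1 replicate 2 it was 0.10.

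In the list of phosphatidic acid supply, 5 of 16 tested genes rose and 2 fell, with a median of 0.02 that became -0.02 under upper-quartile factors and -0.03 with no filter. The diacylglycerol kinase DGKE (0.26 ± 0.04, SE; edgeR adjusted p = 7.53e-04), the acyltransferase GPAT3 (0.32 ± 0.06; 0.00131) and AGPAT4 (0.23 ± 0.05; 0.00265) rose. AGPAT1 (-0.20 ± 0.04; 0.00142) and AGPAT3 (-0.12 ± 0.03; 0.0159) fell. Calls in this list went in both directions, as they did over all tested genes, where 12.0% were called higher and 10.9% lower. The AGPAT3 call was lost without DMSO replicate 1 or 3 or GSK-A1 replicate 1 (adjusted p up to 0.0838), and the other 4 were called in all 15 alternatives.

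Among other lipid transfer proteins and their partners in the endoplasmic reticulum, 3 of 10 tested genes rose and 2 fell, with a median of 0.03 that turned to -0.0090 under upper-quartile factors. SEC14L1, a relative of the yeast PI transfer protein Sec14, rose by 0.26 ± 0.04 (SE; edgeR adjusted p = 1.75e-04) and the membrane tether ESYT2 by 0.17 ± 0.04 (0.00439), both in all 15 alternatives. OSBPL8 (0.15 ± 0.05; 0.0450) and OSBPL5 (-0.18 ± 0.06; 0.0436), which move phosphatidylserine in exchange for phosphoinositides, passed narrowly, each in 6 of 15 alternatives. Removing the GC trend gave 0.06 for OSBPL8 and -0.11 for OSBPL5, and OSBPL8 was at 0.09 when GSK-A1 replicate 2 was left out. OSBPL5 lost its call without any 1 of the 6 libraries, and OSBPL8 without any 1 of the DMSO libraries or GSK-A1 replicate 1. PITPNM3 was the other gene of this list that fell.

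Among genes that consume PI or its phosphates, 1 of 17 tested genes rose and 4 fell, with a median of -0.04. PLCG1, a phospholipase C, fell by 0.16 ± 0.04 on the log2 scale (SE; edgeR adjusted p = 0.00701) in all 15 alternatives. PLCD4 (-0.74 ± 0.25; 0.0395), at 0.841 CPM with DMSO and 0.492 CPM with GSK-A1, kept its call in 9 of the 14 alternatives where it was fitted, had no adjusted p under DESeq2, and lost the call without DMSO replicate 2 or 3 or GSK-A1 replicate 1 or 3. Of the PIP kinases PIP5K1A rose (0.11 ± 0.04; 0.0430) and PIP5K1C fell (-0.14 ± 0.05; 0.0330), calls kept in 9 and 7 of 15 alternatives. With the GC trend removed PIP5K1C was at -0.07, and under upper-quartile factors PIP5K1A was at 0.07. Both calls were lost without any 1 DMSO library or GSK-A1 replicate 1, and that of PIP5K1C also without GSK-A1 replicate 3. In the list of other users of phosphatidic acid and CDP-diacylglycerol, such as the lipins, 0 of 10 tested genes were called, and the median was -0.09.

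**Figure D5:**
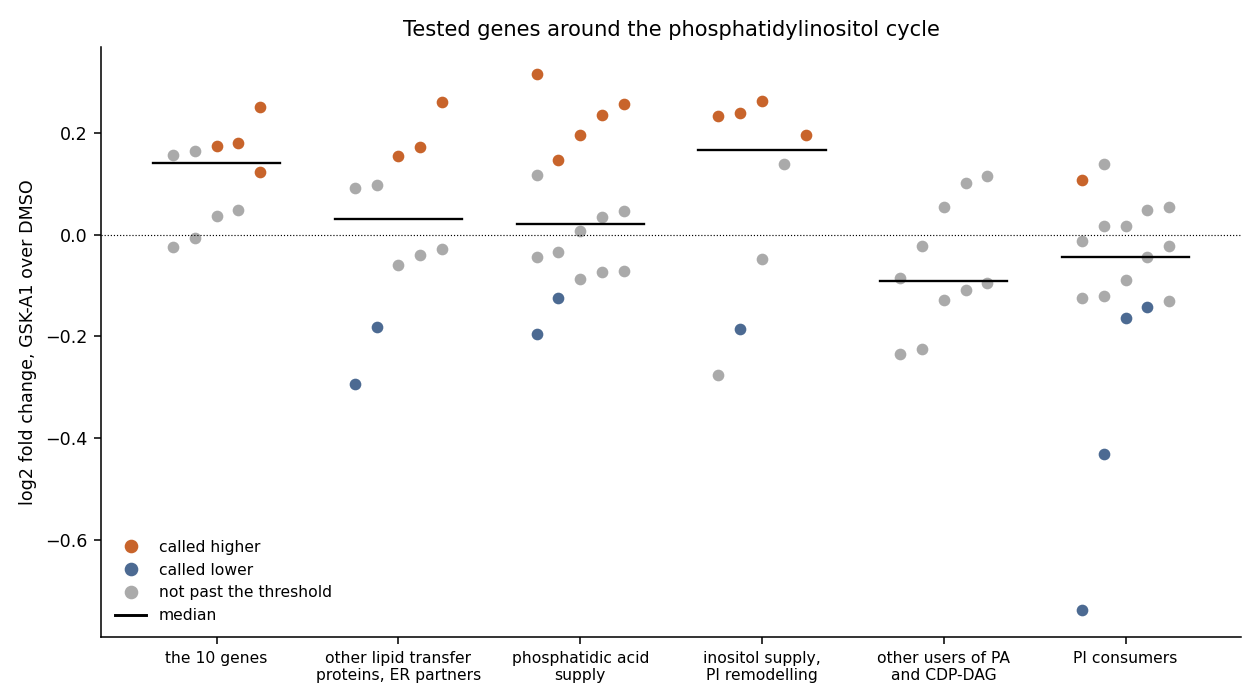
Log2 fold changes of GSK-A1 over DMSO for the 10 genes and the tested genes of 5 lists around the PI cycle (PA, phosphatidic acid; CDP-DAG, CDP-diacylglycerol). Orange points were called higher, blue points lower and grey points not called, and lines mark the medians, which run from -0.09 to 0.17.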

How the data were processed

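RNA from 6 HEK293 libraries (stranded Illumina kit, per the labels' protocols) was sequenced. The authors deposited raw counts per gene, whole numbers with no normalization. The submitters' processing notes name cutadapt 5.1, STAR 2.7.11b, featureCounts in Subread 2.1.1, DESeq2 1.38.0 and GRCh38.p13. The annotation release and strand setting are not given in the sources used here.

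Counts were filtered with filterByExpr (smallest count 10, smallest total 15), scaled with TMM factors and tested with edgeR 4.0.16 in R 4.3.3 by the robust quasi-likelihood F test, without a replicate block. P-values were adjusted over all 16754 tested genes by the Benjamini-Hochberg method, with calls under 0.05. CPM uses TMM-scaled totals. Standard errors are the log2 coefficient over the square root of F. The code was tested on simulated data. With gene-wise dispersions drawn, more false calls were made than the nominal rate. The calls, and the shares called among all tested genes, may therefore hold more false calls than that rate. Those near the threshold are the least certain. The members held 705 counts or more per library; for the lowest of them counting error is a sizeable part of the spread between libraries. Lengths, GC content and exon overlap came from GENCODE 29, promoters from RefSeq. Of 50-base stretches of the members, 0.588% in C2CD2 and 0.391% in C2CD2L also occurred in another gene, and 0 in the other 8. Exons of PITPNA-AS1 covered 7.92% of PITPNA and TTC28-AS1 3.04% of PITPNB on the opposite strand.

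Every member is named, with PI4KA, PITPNM3 and up to 3 called genes per list and direction by p-value. The members, lists and tests were chosen with earlier results of these data known. Alternatives were other library factors and filters, the block, DESeq2 1.42.0, limma-voom (limma 3.58.1), a GC trend removed by loess (span 0.3), a stricter threshold and leaving out each library. Protein sequences were not used here.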

Additional observations from a re-analysis of the deposited data

How the results depend on the processing

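Over 15 alternatives for each of the 10 genes, 126 of 150 values kept their direction and side of the threshold, 10 lost the call, 8 gained it and 6 changed sign. The changes of sign were all in genes that did not pass the test: PITPNM2 under upper-quartile factors (-0.0030), and PITPNA with no filter (0.0022), with the GC trend removed (0.0037), and, among the fits on 5 libraries, when the one omitted was DMSO replicate 3 (0.0059) or, under GSK-A1, replicate 1 (0.0013) or 3 (0.0016). With 1 library left out PITPNA ranged from -0.0155 to 0.0059. The 4 members called became 7 with the GC trend removed and 2 at an adjusted p under 0.01, where all tested genes gave 1871 calls in place of 3835 and the lists 11 in place of 22. With 1 library left out the counts ranged from 1 to 6 members, 2163 to 4890 of all genes and 11 to 25 list genes. The median of the members was 0.10 under upper-quartile factors in place of 0.14, while that over all tested genes was -0.05 in place of -0.01. With the replicate number as a block 5 members were called, PITPNM1 being added (0.15; edgeR adjusted p = 0.0242), with 4127 genes in all. The numbers were not treated as pairs because the labels do not say that they pair the cultures. The deviations of same-numbered libraries were weakly correlated across genes (0.011, 0.019 and 0.032). Each library but GSK-A1 replicate 1 correlated best with its own number, so these values do not settle whether the libraries were paired. The causes of these differences were not tested. The directions of the 4 paralog ratios held in all their alternatives, which were another pseudocount and leaving out each library.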
